A study of Sus scrofa with 50 samples.

Results

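Cytochrome P450 transcripts were measured in 5 organs (spleen, liver, kidney, lung and heart) of 10 Korean minipigs, 5 of the ET type (animals S0235, S0242, S0276, S0309 and S0326) and 5 of the L type (S0349, S0355, S0377, S0384 and S0385). The labels give the type, the animal and the tissue of each of the 50 stranded mRNA libraries, and no treatment, age or sex. The members were all assembled transcripts whose best Swiss-Prot match carries a full name that starts with Cytochrome P450. There were 86 such transcripts among 57085. Their TPM (transcripts per 1000000, a length-normalised share of a library) was summed over each Swiss-Prot entry, and an entry was tested in a tissue where its mean was at least 1 TPM. This gave 38 entries of 22 subfamilies, out of 35133 genes in all, of which 14532 were entries and the others single transcripts without a protein match. This filter left 30 of the 38 P450 entries in liver, 28 in kidney, 26 in lung, 16 in heart and 14 in spleen, and 36 over all tissues. CP26B, a retinoic acid hydroxylase, and CP2W1 passed it in lung alone. Entries are written with the short Swiss-Prot name, so that CP2E1 is written for CYP2E1 and CP242 for CYP2C42.

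Cytochromes P450 are haem enzymes that insert 1 oxygen atom into their substrates, and most of them sit in the membrane of the endoplasmic reticulum and draw electrons from NADPH through the reductase NCPR, at times with cytochrome b5. The CYP1, CYP2 and CYP3 families are known for the clearance of drugs and other foreign compounds, chiefly in hepatocytes. The CYP4 family hydroxylates fatty acids and eicosanoids, and the CYP7 family makes bile acids from cholesterol. In liver many of these genes are switched by the receptors of foreign compounds AHR, NR1I2 (PXR) and NR1I3 (CAR).

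The name of an entry is that of the closest protein in Swiss-Prot, not of a pig gene. For only 5 entries was the closest protein one of the pig. These were CP242 (CYP2C42, chr14:106666445-106701809 in RefSeq's annotation of Sscrofa11.1), CP2E1 (chr14:141690737-141703078), CP3AT (CYP3A29, chr3:6738502-6778121), CP4AO (CYP4A24, chr6:164496928-164518189) and CP7A1 (chr4:74343101-74372628). CP2E1 and CP7A1 each rested on 1 transcript, 99.4% and 100% identical to the pig protein over 495 and 501 residues. The names CP242 and CP3AT may not stand for 1 gene alone. The transcript with most of the CP242 TPM in liver was only 59.0% identical to CYP2C42, and that with most of the CP3AT TPM was 90.3% identical to CYP3A29. The other entries carry the name of a protein of another mammal, such as CP2CN for rat CYP2C23, CP2CI for human CYP2C18, CP2CQ for hamster CYP2C26, CP241 for dog CYP2C41, CP2B4 for rabbit CYP2B4 and CP3AO for sheep CYP3A24. The match had a median identity of 81.9% over the 86 transcripts, with 55 at 80% or more. It covered at least 200 residues in 38 transcripts and fewer than 100 in another 38, and 20 entries rest on 1 transcript. The CYP2C subfamily was the largest, with 22 transcripts in 8 entries, while RefSeq lists 7 CYP2C symbols on chromosome 14, 6 of them protein coding. Transcripts of 1 pig gene may thus fall under more than 1 CYP2C entry, and levels of close relatives cannot be told apart where reads fit both. By their names, the main CP242 and CP2CI transcripts of liver share the gene label g720 of the L-type liver assembly. A CP2CQ and a further CP2CI transcript share g131 of the ET-type liver assembly. Labels are also shared by transcripts of CP3AO and CP3AT (g1295), CP4F2 and CP4F4 (g1922), and CP4F3 and CP4F6 (g3387). Such entries are not known to be separate genes.

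Marker genes of hepatocytes, kidney tubule, heart muscle and lung epithelium were high in the tissue labelled so and low elsewhere, with 1 exception. The kidney library of ET-type S0235 had 1.80 TPM summed over 6 tubule markers, against 887 to 5635 TPM in the other 4 ET-type kidneys, and 1173 TPM over 5 lymphocyte markers, against 11.3 to 26.9 TPM. It is left out of every kidney value below unless named. In the livers 8 of 8 hepatocyte markers were found, with sums of 85168 to 215886 TPM in ET-type and 155394 to 200568 TPM in L-type, and the lowest liver was ET-type S0326. Tubule markers were near 0 in livers, with sums of at most 1.202 TPM. Read depth was not given, so no counting interval can be attached to a value. In bulk tissue fewer cells of a type and less RNA per cell cannot be told apart.

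P450 transcripts made up 2.17% ± 0.614 of all TPM in ET-type livers and 1.72% ± 0.367 in L-type livers (mean ± SD, n = 5 each). Kidneys followed with 0.409% ± 0.348 (n = 4) and 0.325% ± 0.110 (n = 5), lungs with 0.241% ± 0.0608 and 0.251% ± 0.0420, hearts with 0.0183% ± 0.00363 and 0.0217% ± 0.00896, and spleens with 0.00959% ± 0.00193 and 0.0141% ± 0.00195. These shares were not tested, since the members were chosen with results known. They leave out 7 transcripts whose predicted peptide, but not the transcript itself, had a P450 as best match. None of these had a mean above 434 TPM in any tissue. With member transcripts of at least 80% identity alone the shares were 0.931% in ET-type and 0.937% in L-type livers, and 0.0585% and 0.0630% in kidneys. Within the P450 sum, liver was shared by CYP2C with 51.6% ± 16.4 and CYP3A with 36.0% ± 11.3 (n = 10). Kidney was mostly CYP2C, with 75.6% ± 6.31 (n = 9), followed by CYP4F with 8.68% ± 3.51 and CYP4A with 7.86% ± 3.23. Lung held almost only CYP4B (49.2% ± 4.82) and CYP2B (38.0% ± 6.43). Heart was led by CYP4F with 76.7% ± 9.26. Spleen had no leading subfamily, with CYP3A at 20.1% ± 7.09, CYP2C at 16.4% ± 6.11 and CYP4V at 15.1% ± 2.65.

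**Figure D1:**
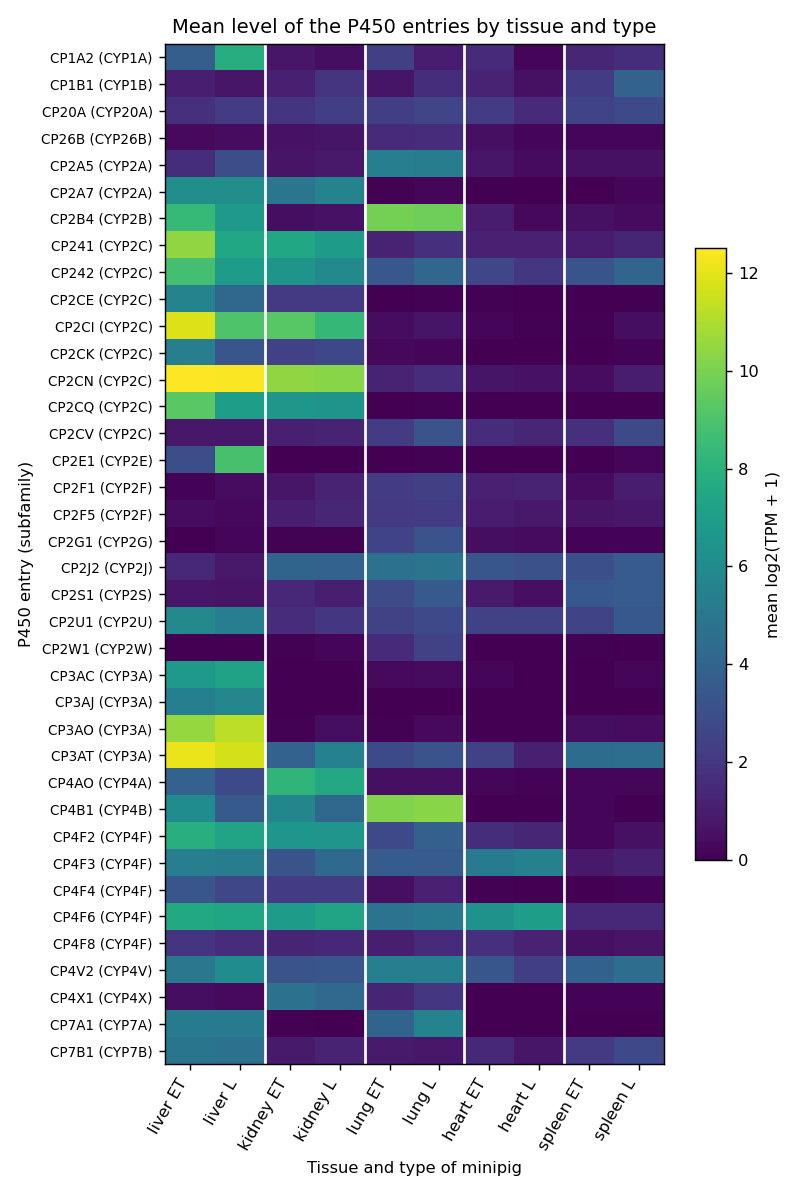
Mean log2(TPM + 1) of the 38 P450 entries (rows, with their subfamily) in the 5 tissues of ET-type and L-type animals (columns), over 5 libraries each and 4 for ET-type kidney. Most CYP2C and all 4 CYP3A entries are brightest in liver, CP2CV is not, CP2CN and CP2CI are also bright in kidney, and CP4B1 and CP2B4 in lung, while heart and spleen are dark for most entries.

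Most of the drug-metabolising entries were highest in liver. Of the 36 entries tested over the 49 libraries, 17 were higher in liver than in each other tissue (47.2%, against 6.78% of all genes tested by limma). The rule asked that the log2 level exceed the average of the 4 remaining tissues by 1 or more with an adjusted p under 0.05, and that the means of both types lie above those of every other tissue. They were all 4 CYP3A entries, 5 of the 8 CYP2C entries, CP1A2, CP2E1, CP2A7, CP2U1, 3 CYP4F entries and CP7B1, the oxysterol hydroxylase. The highest was CP2CN. In rat this enzyme is an epoxygenase of arachidonic acid. It reached 8427, 6001, 5018, 7468 and 3499 TPM in the ET-type livers (animals in the order given above) and 5320.5, 9831, 2661, 10273 and 3458 TPM in the L-type livers. The groups overlapped widely, with L-type S0384 and S0355 at the top and S0377 at the bottom. CP2CN lay 9.19 ± 0.21 (SE) above the mean of the other tissues on log2(TPM + 1), adjusted p = 3.56e-35.

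CP3AT, of the subfamily that holds the main drug-oxidising enzyme of human liver, stood at 7201, 5754, 2671, 8040.4 and 2156 TPM in ET-type and 3246, 4593, 2336, 2757 and 4217 TPM in L-type livers. CP3AO, which matched sheep CYP3A24 over 503 residues, had 468, 4676, 2928, 2057 and 503 TPM and 3244, 1967, 832, 2392 and 6515 TPM. Both entries overlapped between the types, and the animals did not keep the same order: ET-type S0235 was near the top for CP3AT and the lowest for CP3AO. CP3AC and CP3AJ, short matches of 62 and 66 residues, went with CP3AO, and L-type S0385 was the highest of 10 livers in all 3, at 971 TPM for CP3AC and 283 TPM for CP3AJ. CP3AO was 10.65 ± 0.21 above the other tissues (adjusted p = 1.61e-37), and outside of liver no group mean of it passed 1 TPM. CP3AT also reached 46.2 ± 41.9 TPM in kidney (n = 9) and 23.2 ± 9.44 TPM in spleen (n = 10).

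Lung carried 7 of the 36 entries as its own (19.4%, against 21.3% of all genes, so a share near the background). With median-ratio rescaling of the libraries 5 entries were called, without CP2F1 and CP2F5, when 9.66% of all genes were. CP4B1, an enzyme known for activating plant toxins in lung, had 1171, 1283, 774, 1229 and 1246 TPM in ET-type lungs and 1048, 1167, 1391, 1274 and 1359.5 TPM in L-type lungs. CP2B4, of a subfamily that CAR induces in liver, had 1015, 1006, 510.4, 1623 and 886 TPM and 549.6, 859.6, 1334, 912 and 858 TPM. Both entries overlapped between the types, and ET-type S0276 was the lowest lung for each. They lay 7.73 ± 0.53 and 7.52 ± 0.17 above the other tissues (adjusted p = 1.91e-17 and 3.48e-35). CP2A5 came next in lung, at 13.8, 52.9, 45.5, 116 and 26.5 TPM in ET-type and 12.3, 156, 70.1, 34.7 and 17.4 TPM in L-type animals, with a wide range within each type. The other lung entries were low: CP2F1, CP2F5, CP2G1 and CP2J2 had means over 10 lungs of 4.70, 3.70, 6.83 and 26.8 TPM. CP7A1, the rate-limiting enzyme of bile acid synthesis, was not called for any tissue: its mean was 65.3 ± 79.99 TPM in liver and 43.0 ± 56.0 TPM in lung (n = 10 each), a transcript with 100% identity to the pig protein over 501 residues.

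In kidney 2 of the 36 entries were called (5.56%, against 9.07% of all genes): CP4AO, the fatty acid omega-hydroxylase CYP4A24, and CP4X1. CP4AO stood at 401, 274, 363 and 169.8 TPM in ET-type S0242, S0276, S0309 and S0326 and at 213, 247, 108, 158 and 267 TPM in the L-type kidneys. It was 6.81 ± 0.28 above the other tissues (adjusted p = 7.47e-25). CP2CN and CP2CI led kidney by level. CP2CN had a higher mean still in liver. CP2CI was not called for liver, and in L-type S0349, S0377 and S0385 it was lower in liver than in kidney. CP2CN had 6084, 875, 1225 and 556 TPM in the 4 ET-type and 719, 854, 1616, 1319.9 and 2251 TPM in the L-type kidneys, so that S0242 stood far above the other 8. CP2CI had 1242, 337, 658 and 514 TPM and 738, 989, 879.6, 7.15 and 609 TPM, and L-type S0384 stood far below the other 8.

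Heart had no P450 entry of its own (0 of 36, against 4.56% of all genes). Its highest entries were CP4F6, with 62.7, 76.3, 94.2, 129.8 and 79.7 TPM in ET-type and 67.6, 84.0, 177, 115 and 229.7 TPM in L-type hearts, and CP4F3, with 30.4, 30.1, 35.9, 46.0 and 34.2 TPM and 25.6, 41.7, 36.8, 42.4 and 92.9 TPM. CYP4F enzymes degrade leukotriene B4 and other eicosanoids. L-type S0385 was the highest heart for both. CP2J2, an arachidonic acid epoxygenase of human heart, came next with 7.92, 13.0, 5.70, 8.51 and 12.3 TPM and 7.48, 7.15, 6.55, 10.6 and 6.38 TPM. In spleen 1 entry of 36 was called (2.78%, against 7.06%), CP1B1, a hydroxylase of oestrogens found mostly outside of liver, and that call was lost without animal S0235. By level spleen was led by CP3AT (18.5, 23.6, 32.5, 31.0 and 7.79 TPM in ET-type and 24.03, 19.1, 12.4, 23.4 and 39.4 TPM in L-type), CP4V2 (11.01, 16.5, 11.05, 21.3 and 11.4 and 18.8, 19.3, 20.4, 19.8 and 28.7 TPM) and CP242 (5.27, 3.45, 18.1, 16.1 and 7.39 and 13.95, 20.8, 12.1, 14.1 and 21.2 TPM).

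Between the types, most CYP2C entries and CP2B4 had higher means in ET-type livers and CP2E1 and CP1A2 had lower means, but no P450 entry passed the test. By limma on log2(TPM + 1), with Benjamini-Hochberg adjustment over all 21445 liver genes, 0 of the 30 entries tested passed an adjusted p of 0.05 (0.00933% of all genes did). At an unadjusted p below 0.05 there were 10 of 30 (33.3%, against 6.58% of all genes), 8 of them with a higher ET-type mean (26.7%, against 2.39%). For 4 entries (13.3%, against 0.331% of all genes) every ET-type liver lay above every L-type liver: CP242, CP2CQ, CP2CK and CP2B4. No entry lay the other way round (all genes 0.751%). The median difference was 0.30 over the 30 entries and -0.06 over all genes, and 21 of the 30 were above 0 (42.6% of all genes were). The members were picked with such results in view, so these counts describe them and test nothing. Entries that share an assembled gene label are counted singly, so the counts may hold 1 signal more than once.

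**Figure D2:**
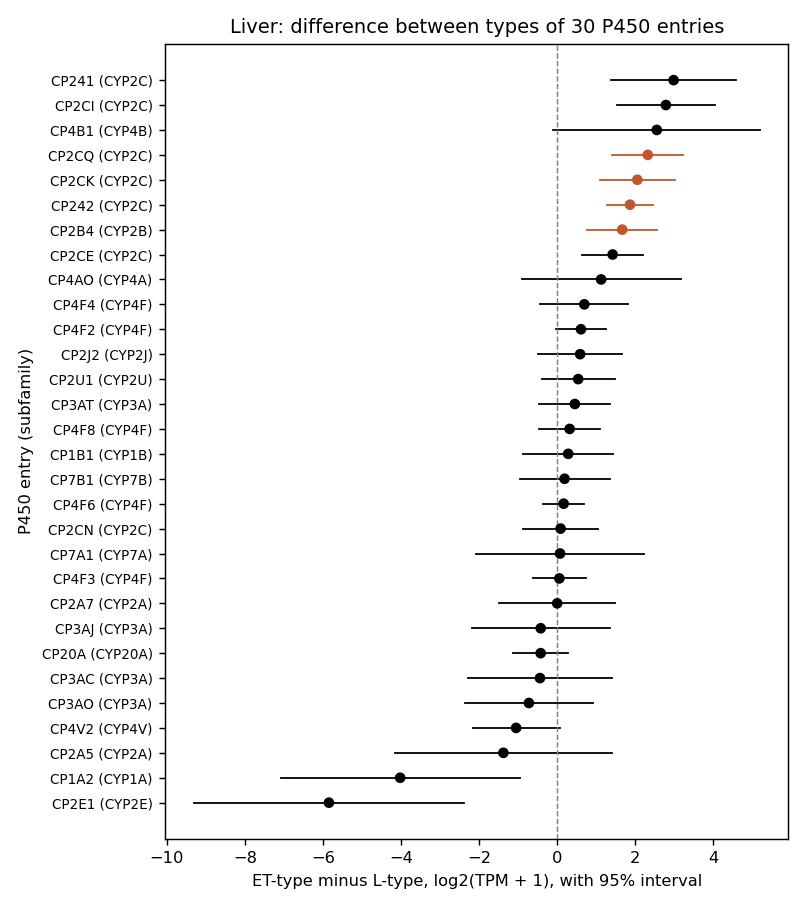
Difference between ET-type and L-type livers (5 against 5 animals) of the 30 P450 entries tested, on log2(TPM + 1). The 95% intervals use the limma SE and a t distribution on the residual degrees of freedom alone, so they are wider than the p values imply. Orange marks the 4 entries whose groups did not overlap. CP2B4 and the CYP2C entries lie right of 0, and CP2E1 and CP1A2 far left with wide intervals.

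CP242, a sum over transcripts of mixed identity to pig CYP2C42, had 678, 415, 399, 312 and 469 TPM in the ET-type and 97.3, 175, 151, 95.7 and 102 TPM in the L-type livers. The lowest ET-type value was well above the highest L-type value. The means were 455 ± 137 and 124 ± 36.6 TPM (SD, n = 5 each), and the difference of 1.86 ± 0.26 (SE, 95% interval 1.27 to 2.45) had an adjusted p of 0.0692. CP2CQ gave 1040.4, 515, 618, 412 and 728 TPM and 105, 217, 195, 49.9 and 140.5 TPM, again apart (2.32 ± 0.39, adjusted p = 0.129). CP2CI gave 7199, 3201, 1732, 4991 and 3334 TPM and 427, 2041, 489.9, 225 and 446 TPM. Here L-type S0355 reached into the ET-type range, above ET-type S0276, and the other 4 L-type livers were below all ET-type livers (2.78 ± 0.54, adjusted p = 0.198). CP241, with matches of only 73 residues, also had S0355 inside the ET-type range and the other 4 L-type livers below it: 2125, 978, 1882, 837 and 1422 TPM and 101.01, 1013, 222, 37.2 and 173 TPM (2.98 ± 0.70, adjusted p = 0.335). CP2CK, a single transcript, had 41.9, 34.5, 76.4, 15.4 and 59.3 TPM and 4.56, 14.1, 6.86, 12.1 and 10.1 TPM (2.05 ± 0.41, adjusted p = 0.209). CP2CN, the most abundant CYP2C entry, had 6082 ± 1951 and 6309 ± 3554 TPM, with wide overlap. Of the 8 CYP2C entries 7 were tested in liver and all 7 had a difference above 0 (42.6% of all genes did), with 3 whose groups did not overlap, ET above L (0.331% of all genes). CP2CV was too low to test there. The 7 are not known to be separate genes: CP2CI shares an assembled gene label with CP242 and another with CP2CQ. Among CP241, CP242, CP2CI and CP2CQ, r of log2(TPM + 1) over the livers of both types was 0.904 to 0.965. The counts may thus hold 1 signal more than once. Summed over the subfamily, CYP2C stood at 12837 ± 4165 TPM in ET-type and 7637 ± 4185 TPM in L-type livers (0.87 ± 0.38, adjusted p = 0.752), with overlap.

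Transcripts of 1 CYP2C entry differed from each other in their pattern. In CP2CI, the transcript with a match of 447 residues had 6959, 3074, 1635, 4822 and 3219 TPM in ET-type and 316, 1942, 378, 155 and 320.4 TPM in L-type livers, while another, of 254 residues, had 81.2, 43.4, 37.4, 88.3 and 14.03 and 71.7, 42.0, 92.4, 32.3 and 119.8 TPM. In CP241, the main transcript had 2108, 941, 1738, 832 and 1355 TPM in ET-type and 50.2, 980.3, 56.9, 5.80 and 47.4 TPM in L-type livers. Its values fell into a high range, with S0355 as the 1 L-type member, and a low range of 4 L-type livers. In CP2CQ, 2 transcripts assembled from ET-type liver had higher means in ET-type animals, at 398 ± 261 against 32.0 ± 51.9 TPM and 206 ± 181 against 13.7 ± 16.4 TPM. Its other transcript, assembled from L-type liver, had 58.7 ± 27.6 against 95.8 ± 65.4 TPM. In CP242, the transcript of 59.0% identity over 216 residues had 559, 287, 131, 272 and 298 TPM in ET-type and 67.6, 98.6, 138, 28.3 and 91.7 TPM in L-type livers, where ET-type S0276 lay just below L-type S0377. The transcripts closest to pig CYP2C42, of 98.4% over 61 residues and 96.1% over 51, overlapped between the types. The first had 43.9 ± 40.9 against 25.1 ± 22.9 and the second 14.4 ± 14.5 against 4.43 ± 2.26 TPM. Over all CYP2C transcripts with a mean of at least 1 TPM in liver, a higher ET-type mean was found in 7 of 8 assembled from ET-type tissue and in 9 of 13 assembled from L-type tissue. Over all transcripts with that mean in liver the shares were 50.0% and 38.2%. The part of the assembly of origin in the CYP2C difference was not tested.

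CP2B4 in liver, named after its values were seen, had 322, 325, 437, 307 and 307 TPM in ET-type and 43.4, 138, 123, 251 and 70.8 TPM in L-type animals, which did not overlap (1.66 ± 0.39, adjusted p = 0.335). Its transcripts behaved differently from each other. One with a match of 470 residues had 294, 188, 216, 294 and 167 TPM in ET-type and 33.1, 129, 111, 145 and 64.7 TPM in L-type livers. Another, of 329 residues and the main form in lung, was present in the livers of ET-type S0242, S0276 and S0326 and L-type S0384, at 112, 147, 111 and 81.6 TPM. In the other 6 livers it was at most 7.19 TPM.

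CP2E1, which oxidises ethanol and paracetamol, went the other way. Its single transcript, 99.4% identical to the pig protein over 495 residues, had 0.441, 99.1, 15.7, 0.460 and 8.66 TPM in the ET-type livers and 1987, 15.9, 2439, 175 and 1500.4 TPM in the L-type livers. The L-type livers of S0349, S0377 and S0385 were above 1000 TPM, S0384 lay between, and S0355 lay inside the ET-type range. The means were 24.9 ± 42.0 and 1223 ± 1083 TPM, and the difference of -5.85 ± 1.503 (95% interval -9.32 to -2.38) had an adjusted p of 0.397. CP1A2, the caffeine-oxidising enzyme that AHR switches on, had 3.10, 67.3, 34.7, 2.91 and 11.6 TPM and 209.5, 8.31, 1463, 131 and 1495 TPM (-4.03 ± 1.33, adjusted p = 0.639). The lowest L-type liver was again S0355, which for CP2CI and CP241 had lain inside the ET-type range. CP2A5, named for a mouse enzyme that hydroxylates coumarin, had 0.0427, 0.665, 14.9, 0.384 and 6.28 TPM and 25.2, 0.311, 80.5, 0.112 and 9.75 TPM, with the highest values in L-type S0377 and S0349 (-1.38 ± 1.205, adjusted p = 0.923). CP4V2, a fatty acid hydroxylase, had 13.9, 60.4, 32.4, 48.2 and 21.6 TPM and 79.3, 25.7, 98.9, 45.2 and 132 TPM (-1.06 ± 0.48, adjusted p = 0.761). CP20A, an enzyme with no settled substrate, had 2.53 ± 1.21 against 3.67 ± 1.62 TPM (-0.43 ± 0.31, adjusted p = 0.894).

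The CYP3A, CYP4 and CYP7 entries overlapped between the livers of the types. Over all liver genes 42.6% had a difference above 0. Of the 4 CYP3A entries 1 was above 0, CP3AT, with 5164 ± 2648 against 3429.8 ± 956 TPM, while CP3AO had 2126 ± 1770.2 against 2989.9 ± 2154 TPM. All 5 CYP4F entries were above 0, and the most abundant, CP4F2, had 249 ± 82.1 against 159 ± 38.7 TPM. Some of the 5 share an assembled gene label, so they are not known to be separate genes. The transcripts of CP4F3 lay at -0.00086, 0.0030 and 0.109. CP7A1 varied widely within each type, with 13.2, 251, 15.7, 36.0 and 30.8 TPM in ET-type and 28.6, 7.32, 12.3, 117 and 142 TPM in L-type livers. CP7B1 had 37.7 ± 32.3 against 25.2 ± 5.37 TPM and CP4AO 20.8 ± 15.6 against 11.3 ± 12.8 TPM. CP2A7 had 82.1 ± 45.7 against 104 ± 99.0 TPM, CP2U1 69.3 ± 52.6 against 40.8 ± 10.4 TPM, CP2J2 2.26 ± 1.90 against 0.876 ± 0.609 TPM and CP1B1 1.94 ± 3.32 against 0.771 ± 0.552 TPM. The 8 entries below the filter in liver were CP2CV, CP2S1, CP26B, CP4X1, CP2F5, CP2F1, CP2G1 and CP2W1, with means of at most 0.787 TPM over the 10 livers.

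**Figure D3:**
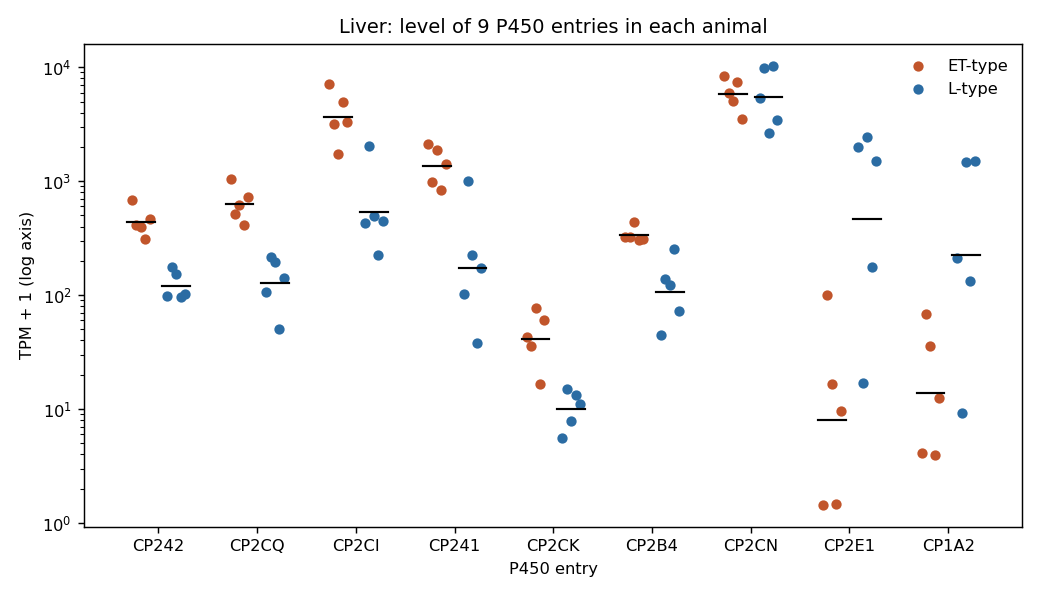
Level of 9 P450 entries in each of 5 ET-type and 5 L-type livers, as TPM + 1 on a log axis; bars are means on the log scale. CP242, CP2CQ, CP2CK and CP2B4 are apart, 1 L-type animal (S0355) sits among the ET-type animals for CP2CI and CP241, CP2CN overlaps fully, and CP2E1 and CP1A2 range widest.

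The count of liver calls turned on the fit. When the 49 libraries of all tissues entered a single model with the animal as replicate block, 9 of 36 P450 entries passed in liver (25%, against 1.31% of all genes): CP241, CP242, CP2B4, CP2CE, CP2CI, CP2CK and CP2CQ higher and CP1A2 and CP2E1 lower in ET-type (CP242 adjusted p = 0.0491). That fit takes 1 spread per gene over all tissues, and most of these entries are near 0 outside of liver and kidney. It called 3 entries in spleen (8.33%, against 20.7%) and none in heart (against 2.77%) or kidney (against 0.693%). CP2CE, a single transcript with a match of 65 residues, was named there after its values were seen and had 51.1 ± 20.6 against 17.3 ± 4.70 TPM. Without ET-type S0309 the fit of liver alone called CP242 and CP2CE, when 0.0416% of all genes passed. Without L-type S0355 it called CP241, CP242 and CP2CI, when 0.0697% passed. With transcripts of at least 80% identity alone, CP242 had a difference of 0.999 (adjusted p = 0.886).

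No list of P450 partners had a member that passed in liver. Over all liver genes 42.6% had a difference above 0 and 6.58% an unadjusted p below 0.05. Of 9 electron donors and membrane partners tested, 3 had a difference above 0, with a median of -0.05 against -0.06 for all genes, and 2 had an unadjusted p below 0.05. NB5R3, the reductase of cytochrome b5, had 112, 152, 261, 56.2 and 179 TPM in ET-type and 70.2, 70.8, 25.6, 50.9 and 12.9 TPM in L-type livers (1.78 ± 0.51, adjusted p = 0.502). CYB5, cytochrome b5 itself, had 634, 647, 653, 865 and 344 TPM and 1476, 985, 1038, 999 and 1054 TPM, with no overlap (-0.86 ± 0.25, adjusted p = 0.519). The reductase NCPR had 112 ± 35.3 against 114 ± 39.4 TPM. Of 11 enzymes of haem synthesis and breakdown 2 were above 0 (median -0.18) and 1 had an unadjusted p below 0.05. HEM1, which makes the first intermediate of haem, had 109, 217, 98.1, 179.6 and 193 TPM and 189.7, 203, 217, 695 and 968 TPM, highest in L-type S0384 and S0385 (-1.22 ± 0.48, adjusted p = 0.689). HMOX1, which breaks haem down, had a difference of -0.96 ± 0.45, adjusted p = 0.762.

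Of 21 receptors and factors that control P450 genes, tested out of 24 listed, 4 were above 0 in liver (median -0.14) and 2 had an unadjusted p below 0.05. Over all liver genes 42.6% were above 0 (median -0.06) and 6.58% had an unadjusted p below 0.05. AHR had 49.1, 36.2, 23.0, 91.2 and 26.0 TPM in ET-type and 24.1, 30.1, 9.14, 31.6 and 11.6 TPM in L-type livers (1.02 ± 0.44, adjusted p = 0.730). ET-type S0309 had the highest AHR and the lowest CP1A2, a known AHR target, of the 10 livers. That animal was singled out after its values were seen, and the relation of AHR to CP1A2 was not tested. CEBPB, a liver transcription factor of the acute phase, had a difference of -0.68 ± 0.30, adjusted p = 0.751. PXR (NR1I2) had 80.4 ± 20.6 against 83.9 ± 9.90 TPM and CAR (NR1I3) 51.3 ± 11.14 against 61.0 ± 28.0 TPM. Of 10 acute phase genes, most of which rise in inflammation, 1 was above 0 and 1 had an unadjusted p below 0.05. HPT (haptoglobin) had -0.69 ± 0.27, adjusted p = 0.689 and FIBG -0.51 ± 0.52, adjusted p = 0.937. SAA2, serum amyloid A and the 1 above 0, was highest in L-type S0355, at 2913 TPM against 36.0 to 837 TPM in the other 9 livers. It was singled out after its values were seen, and its part in the P450 values of that animal was not tested.

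P450s of the superfamily whose Swiss-Prot name does not start with Cytochrome P450 were not members. Of 7 of them tested in liver 0 passed, 3 were above 0 (42.6% of all genes were) and 1 had an unadjusted p below 0.05 (6.58% of all genes). CP8B1, a bile acid hydroxylase, had 0.179, 0.13997, 0, 0.744 and 0.107 TPM in ET-type and 14.4, 0.644, 2.003, 1.49 and 0.827 TPM in L-type livers (-1.41 ± 0.53, adjusted p = 0.685). CP51A, the sterol demethylase, had 278, 295, 114, 290.2 and 163 TPM and 163, 204, 116, 138 and 89.5 TPM (0.64 ± 0.32, adjusted p = 0.779).

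Liver and kidney of the same animal shared some P450 levels. CP4B1, of which 1 transcript of 468 residues gave nearly all of the TPM in liver and kidney, had 183, 166, 135, 2.89 and 87.5 TPM in the ET-type livers and 2.11, 7.62, 2.54, 65.3 and 32.3 TPM in the L-type livers. In the kidneys of ET-type S0242, S0276, S0309 and S0326 it had 354, 215, 2.09 and 34.2 TPM and in those of the L type 7.75, 1.98, 3.87, 77.6 and 205 TPM. The animals S0309, S0349, S0355 and S0377 were below 10 TPM in both organs, and the other 5 with both organs were above 30 TPM in both. In lung the same transcript did not set these animals apart, with 505, 615, 340.3, 570.5 and 546 TPM in ET-type and 454, 447, 712, 593 and 529 TPM in L-type animals. The low and high animals were not compared by a test, since they were found by this value.

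CYP2C entries were shared between the organs in 1 animal. L-type S0384 was the lowest of 10 livers for CP2CI, CP241 and CP2CQ, at 225, 37.2 and 49.9 TPM, and by far the lowest of 9 kidneys, at 7.15, 6.51 and 1.16 TPM. The main CP241 transcript stood at 0.307 TPM in that kidney and at 104 to 301 TPM in the other 8. The same kidney had 1319.9 TPM of CP2CN, inside the range of the others, and 158 TPM of CP4AO. The other low L-type livers were not low in kidney: S0349, S0377 and S0385 had 738, 879.6 and 609 TPM of CP2CI there.

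**Figure D4:**
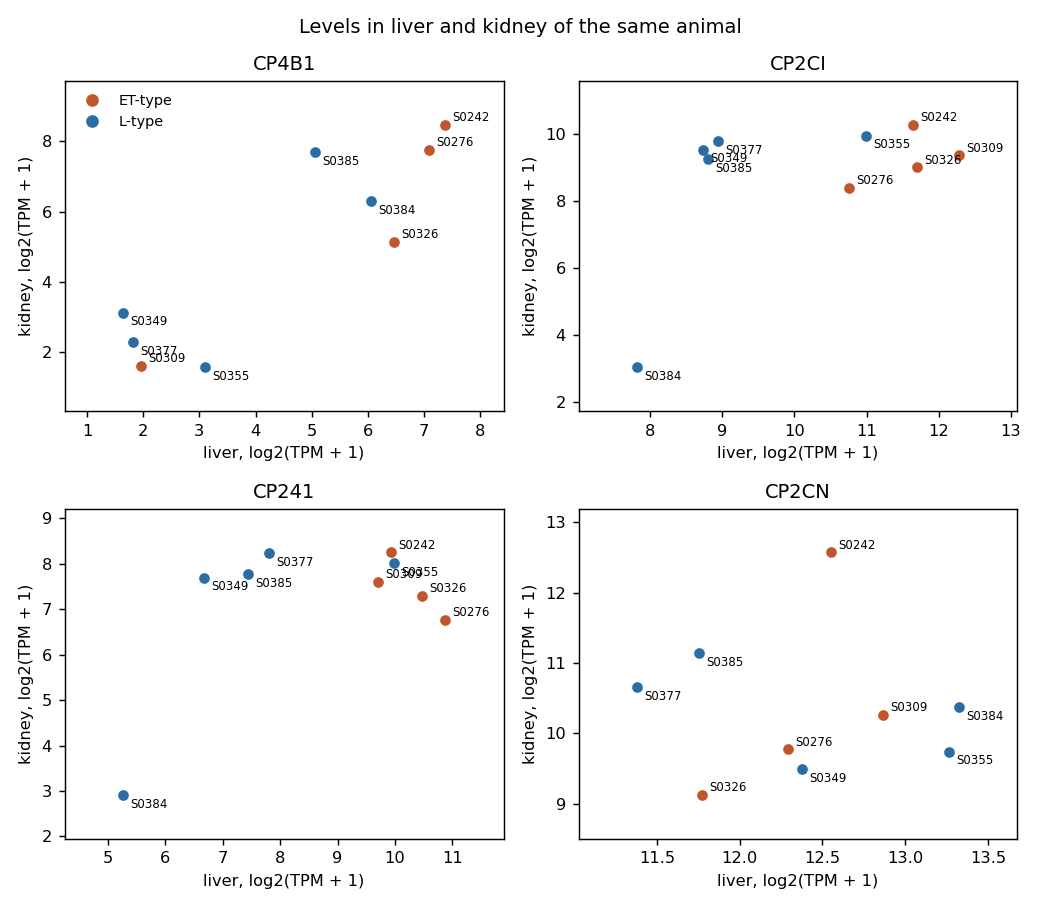
Level in liver (x axis) and kidney (y axis) of the same animal, both as log2(TPM + 1), for CP4B1, CP2CI, CP241 and CP2CN in 4 ET-type and 5 L-type animals. CP4B1 falls into a low and a high cluster in both organs, S0384 is alone at the bottom for CP2CI and CP241, and S0242 is alone at the top of kidney for CP2CN.

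In kidney no P450 entry passed between the types. Of 28 entries 0 were called (0.00376% of 26569 genes), 0 had an unadjusted p below 0.05 (8.7%) and 0 had groups apart (2.92%). Medians were -0.10 for the entries and -0.28 for all genes. With the smallest p among higher ET-type means, CP4AO had 0.60 ± 0.35, adjusted p = 0.616. Its transcripts did not go together. The short match of 26 residues had 118, 246, 122 and 127 TPM in ET-type and 30.3, 79.2, 19.3, 57.0 and 56.2 TPM in L-type kidneys, apart between the types. The match of 416 residues had 282, 27.8, 241.6 and 43.3 TPM and 182, 168, 88.6, 101.3 and 211 TPM, and with matches of at least 200 residues the CP4AO difference was -0.57. Next came CP4X1 (0.43 ± 0.38), CP4B1 (1.55 ± 1.51), CP2S1 (0.34 ± 0.40) and CP2CI (0.95 ± 1.23). Among lower ET-type means, CP4F3 had -1.05 ± 0.53, adjusted p = 0.592, with 14.4, 6.13, 7.86 and 7.28 TPM in 4 ET-type and 18.7, 8.06, 37.0, 7.63 and 48.1 TPM in L-type kidneys, followed by CP1B1 (-0.82 ± 0.45), CP3AT (-1.56 ± 0.93), CP2U1 (-0.40 ± 0.29) and CP2F1 (-0.43 ± 0.30). CP242 and CP2CQ, apart between the types in liver, had 0.58 ± 0.81, adjusted p = 0.791 and 0.15 ± 1.24, adjusted p = 0.963 here. The signs of CP242, CP2CI and CP2CQ rested on S0384: without it they were -0.26, -0.37 and -1.18. CP2E1 was listed at 0 in all 9 kidneys. In the whole kidney sum, CYP2C had 3275 ± 3167 TPM in ET-type and 2474 ± 848 TPM in L-type animals (0.07 ± 0.51, adjusted p = 0.961). Tubule markers, 6 of 7, summed to 887 to 5635 TPM in ET-type and 987 to 6515 TPM in L-type kidneys.

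In lung 0 of 26 entries passed (0.213% of 29139 genes) and 0 had groups apart (4.2%). Medians were -0.33 for the entries and -0.15 for all genes, and 5 entries were above 0 (19.2%, against 35.1% of all genes). At an unadjusted p below 0.05 there were 4, all with lower ET-type means (15.4%, against 13.3% of all genes). CP7A1 had 14.3, 42.8, 12.7, 6.62 and 16.3 TPM in ET-type and 45.0, 40.7, 18.4, 35.8 and 197 TPM in L-type lungs, with S0385 far above the rest (-1.56 ± 0.58, adjusted p = 0.223). CP4F2, a hydroxylase of vitamin K and fatty acids, had 5.44, 11.5, 3.91, 3.49 and 6.77 TPM and 17.0, 18.0, 6.75, 8.37 and 23.4 TPM (-1.09 ± 0.37, adjusted p = 0.191). CP1B1 had -0.96 ± 0.33, adjusted p = 0.192, CP4X1 -0.69 ± 0.27, adjusted p = 0.234 and CP2G1 -0.67 ± 0.31, adjusted p = 0.311. In the joint model with a replicate block for the animal CP2G1 alone passed as lower in ET-type (1 of 36, against 2.91% of all genes). Of the 5 entries above 0, CP1A2 had 6.01, 23.1, 0.175, 1.44 and 6.96 TPM in ET-type and 1.26, 1.05, 0.635, 0.327 and 2.16 TPM in L-type lungs (1.38 ± 0.67, adjusted p = 0.336), and CP2B4, CP2A5, CP4F3 and CP4V2 lay between 0.01 and 0.12. CP242 had -0.74 ± 0.43, adjusted p = 0.427. Lung epithelium markers, 4 of 4, summed to 20641 to 49492 TPM in ET-type and 20092 to 41174 TPM in L-type lungs. Macrophage markers, 5 of 6, summed to 167 to 664 and 623 to 1978 TPM. Heart muscle markers, 4 of 4, summed to 32.3 to 80.3 and 94.96 to 235.5 TPM with no overlap of the sums. Their mean log2(TPM + 1) did overlap, at 1.90 to 3.20 in ET-type and 2.46 to 5.15 in L-type lungs. Lymphocyte markers, 5 of 5, summed to 16.5 to 44.0 and 31.3 to 89.6 TPM. The part of these lists in the P450 values of lung was not tested.

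In heart 0 of 16 entries passed (0.0238% of 21014 genes), and those with the smallest p had higher ET-type means. Medians were 0.41 for the entries and 0.09 for all genes. At an unadjusted p below 0.05 there were 7 with higher ET-type means (43.8%, against 13.9% of all genes), and groups were apart for 2 of 16 (12.5%, against 3.11%). These were low transcripts in heart. CP3AT had 3.96, 6.23, 2.40, 2.41 and 8.78 TPM in ET-type and 0.691, 1.27, 0.912, 2.15 and 0.833 TPM in L-type hearts (1.32 ± 0.31, adjusted p = 0.0863). CP1A2 had 1.16, 2.53, 0.432, 4.59 and 2.24 TPM and 0.0593, 0.416, 0, 0.182 and 0 TPM, listed at 0 in 2 L-type hearts (1.36 ± 0.32, adjusted p = 0.0863). CP4V2 had 6.46, 4.82, 10.2, 12.7 and 15.1 TPM and 4.82, 4.85, 3.03, 3.74 and 3.87 TPM (1.02 ± 0.27, adjusted p = 0.0940), CP20A 0.70 ± 0.23, adjusted p = 0.127 and CP7B1 0.63 ± 0.23, adjusted p = 0.151. Without ET-type S0242, CP3AT, CP1A2 and CP4V2 passed, when 10.2% of all genes did. The abundant CP4F6 and CP4F3 lay below 0, at -0.50 ± 0.33, adjusted p = 0.388 and -0.31 ± 0.29, adjusted p = 0.549, as did CP2F1 (-0.11 ± 0.30), CP2U1 (-0.03 ± 0.15) and CP241 (-0.02 ± 0.20). CP242 had 0.64 ± 0.26, adjusted p = 0.1803. Hepatocyte markers, 8 of 8, summed to 58.3 to 127 TPM in ET-type and 17.3 to 50.9 TPM in L-type hearts, so the sums were apart as CP3AT and CP1A2 were. Their mean log2(TPM + 1), which the most abundant markers lead less, overlapped, at 1.09 to 1.38 in ET-type and 0.875 to 1.16 in L-type hearts. Macrophage markers, 5 of 6, summed to 196 to 376.6 and 65.2 to 258 TPM. Heart muscle markers, 4 of 4, summed to 20555 to 63389.9 TPM in ET-type and 62380.1 to 77704 TPM in L-type hearts, and red cell markers, 3 of 4, to 129 to 1156 and 13.2 to 135 TPM. Their part in the P450 values was not tested.

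Spleen was the only tissue where P450 entries passed the test of its own libraries, and their share was that of all genes. Of 14 entries 3 were called, all lower in ET-type (21.4%, against 21.5% of 24007 genes). The median was -0.45 over the entries and -0.47 over all genes. CP1B1 had 11.08, 2.07, 3.45, 2.15 and 3.08 TPM in ET-type and 16.9, 8.21, 16.9, 20.2 and 12.1 TPM in L-type spleens. ET-type S0235 reached into the L-type range, above S0355 (-1.72 ± 0.37, adjusted p = 0.0240). CP2U1, a hydroxylase of long fatty acids, had 6.21, 4.91, 5.41, 5.34 and 2.995 TPM and 9.64, 7.43, 11.02, 9.62 and 11.3 TPM, with no overlap (-0.87 ± 0.21, adjusted p = 0.0266; groups were apart with L above ET for 7.14% of the entries and 15.5% of all genes). CP2CV, a match of 106 residues to goat CYP2C31, had 1.12, 0.978, 4.83, 4.16 and 2.43 TPM and 5.21, 6.38, 6.58, 3.47 and 7.58 TPM (-0.99 ± 0.33, adjusted p = 0.0486). Not passing were CP4V2 (-0.58 ± 0.21, adjusted p = 0.0629) and CP242 (-0.85 ± 0.37, adjusted p = 0.102), and CP4F6 was the 1 entry above 0 (0.03 ± 0.32). That was 7.14% of the entries, against 13.2% of all genes.

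These calls did not outlast a change of scale. With median-ratio rescaling the median of all spleen genes moved from -0.47 to -0.0018, the differences were -1.21 for CP1B1, -0.36 for CP2U1 and -0.52 for CP2CV, and 0 entries passed (CP1B1 adjusted p = 0.0778). Calls over all genes went from 5339, of which 167 were higher in ET-type, to 764, of which 481 were higher. With quantile scaling 0 entries passed as well. Leaving out ET-type S0276 or S0326, or L-type S0377, S0384 or S0385, also left 0 calls, and CP2CV lost its call without a filter (adjusted p = 0.0656). Red cell markers, 3 of 4, summed to 110048 to 335770 TPM in ET-type and 5475 to 149587 TPM in L-type spleens, and lymphocyte markers, 5 of 5, to 59.8 to 138 and 96.5 to 537 TPM, and both lists overlapped between the types. Their part in the calls was not tested.

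**Figure D5:**
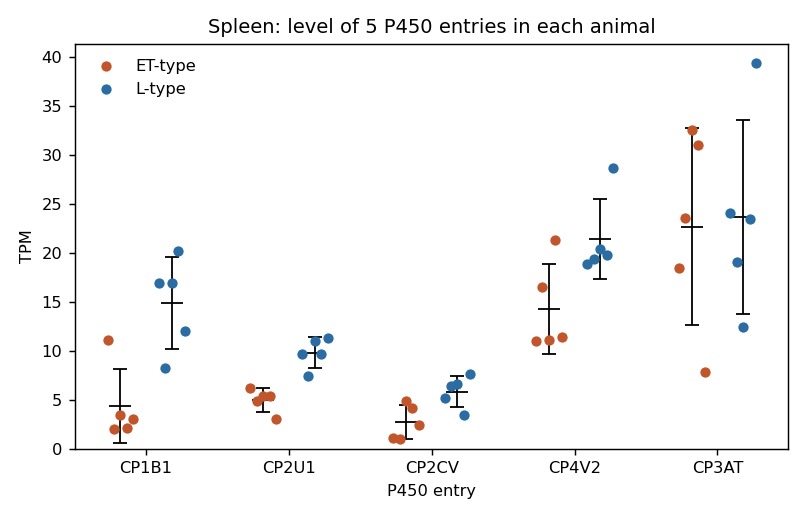
TPM of 5 P450 entries in each of 5 ET-type and 5 L-type spleens, with mean and SD. CP1B1, CP2U1 and CP2CV, the 3 entries that passed on the deposited scale, are lower in ET-type with 1 ET-type animal high for CP1B1, CP4V2 did not pass, and CP3AT overlaps fully.

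Whether the type difference depended on the tissue was asked in 2 ways. An F test of the interaction of type and tissue over the 49 libraries called 9 of 36 entries (25%, against 6.1% of all genes): CP2E1, CP1A2, CP2CK, CP241, CP1B1, CP2CE, CP2B4, CP242 and CP4V2, with adjusted p from 0.00178 for CP2E1 to 0.0499 for CP4V2. The count fell to between 1 and 4 without animal S0235, S0276, S0326, S0349, S0377 or S0385, when between 0.766% and 3.92% of all genes were called, and to 3 with a pseudocount of 0.1 (4.05% of all genes). That fit takes 1 spread per gene over tissues that differ in spread, so each animal's tissue was also compared with the mean of its other tissues. For ET-type S0235 that mean was taken without kidney, so it is not like that of the other animals. In the comparison within animals 0 entries passed for liver (0.00336% of all genes), kidney (0.00336%) and lung (0.0404%). In heart 5 of 36 passed (13.9%, against 8.69%), namely CP1A2, CP1B1, CP20A, CP2E1 and CP4V2, all shifted towards ET-type, although CP2E1 was listed at 0 in all 10 hearts. In spleen CP1B1, CP2CV and CP2U1 passed (8.33%, against 7.11%), all shifted towards L-type. CP2CK, CP241, CP2CE, CP2B4 and CP242 were called by the F test and in none of the 5 comparisons within animals.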

How the data were processed

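Total RNA of the 5 tissues was made into stranded poly(A) libraries, per the labels' protocols. The submitters' processing notes name Trimmomatic 0.36, Salmon 1.10.0 and the build Sscrofa11.1; the step and order of each are not given in the sources used here. The deposited table holds the authors' TPM for 57085 assembled transcripts with their best Swiss-Prot matches, and each library sums to 1000000. TPM keeps no read depth, so no counting error could be computed. All 50 columns of values were used, and 0 were left aside.

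TPM was summed over each Swiss-Prot entry, which counts fragments of a gene more than once. Transcripts without a match stayed single. Types were compared within each tissue with limma 3.58.1 (R 4.3.3, trend, empirical Bayes) on log2(TPM + 1), with a minimum average of 1 TPM per gene, with Benjamini-Hochberg adjustment over all genes tested and a threshold of 0.05. A pseudocount of 1 understates the change of low genes. Tissues were compared in 1 fit of 49 libraries with 10 group means. The labels name the animals, and types share none, so the type comparisons hold no pairs. Across tissues, deviations from the group means were correlated within an animal with a mean r of 0.257 over 96 pairs, 92 of them above 0.1. Over 384 pairs of different animals of a type the mean r was -0.0644. Deviations from a group mean sum to 0 over its animals, so that negative value follows from the first and is no control for it. The procedure was checked on simulated data. Tables were handled with pandas 2.3.3 (Python 3.11.15, numpy 2.4.6), and plots were drawn with matplotlib 3.10.9.

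The members, the partner and marker lists and the tests were chosen with earlier results of these data known. Fold and p are given for entries called, for the 5 lowest p values per direction and tissue, for CP2E1, CP242, CP2CQ and CP2CI where tested, and for the 2 partners of each list with the smallest p. Other entries given a fold are said to be chosen after their values were seen. Alternatives were a pseudocount of 0.1, no filter or a mean of 5 TPM, median-ratio and quantile scaling, robust limma, transcripts or subfamilies in place of entries, identity of at least 80%, the animal as replicate block, and leaving out each animal. Matches of at least 200 residues and the comparison within animals were added after the data were seen.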

Additional observations from a re-analysis of the deposited data

Results flagged for a closer look

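Single animals stood apart from the other animals of their type, by Dixon's test on groups of 4 or 5, for 9 values. In 54 groups tested, about 1 in 20 is flagged by chance. In liver, CP2E1 was 99.1 TPM in ET-type S0242, against at most 15.7 TPM in the other ET-type livers, and CP2CI was 2041 TPM in L-type S0355, against at most 489.9 TPM in the other L-type livers. In kidney, CP2CN was 6084 TPM in ET-type S0242, against at most 1225 TPM, and P450 transcripts took 0.926% of all TPM in that library, against at most 0.303% in the other 3. CP4B1 was low, at 774 TPM, in the lung of ET-type S0276, against at least 1171 TPM. In heart, CP4F3 was 92.9 TPM in L-type S0385, against at most 42.4 TPM, and CP2J2 was 10.6 TPM in L-type S0384, against at most 7.48 TPM. In spleen, CP4V2 was 28.7 TPM in L-type S0385, against at most 20.4 TPM, and CP1B1 was 11.08 TPM in ET-type S0235, against at most 3.45 TPM.

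For 7 entries the type difference in 1 tissue was tested against the mean of the same animals' other tissues and passed an adjusted p of 0.05 by limma. Kidney was missing from that mean for ET-type S0235. In heart the ET minus L difference exceeded that of the other tissues by 1.95 for CP1A2, 1.45 for CP1B1, 1.01 for CP20A, 1.53 for CP2E1 and 1.40 for CP4V2, on log2(TPM + 1). CP2E1 was listed at 0 in all 10 hearts, so its value is that of the other tissues with the sign turned. In spleen the difference was -1.53 for CP1B1, -0.78 for CP2CV and -0.93 for CP2U1.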

How the results depend on the processing

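Counts of P450 entries called between the types were 0 in heart, kidney, liver and lung and 3 in spleen. With the animal as replicate block in 1 fit of all libraries they were 9 in liver, 1 in lung, 3 in spleen and 0 in heart and kidney; entries higher in a tissue stayed at 17, 7, 2, 1 and 0 for liver, lung, kidney, spleen and heart, and the interaction gave 11 in place of 9 (13.1% of all genes). Spleen calls were 0 with median-ratio (3.18% of all genes) and with quantile scaling (0.2%). Leaving out 1 animal gave 0 to 3 calls in heart, 0 to 3 in liver, 0 to 4 in spleen, 0 to 2 entries higher in spleen and 1 to 9 interaction calls. Of all genes, 0 to 10.2% were then called in heart, 0.00926 to 0.0697% in liver, 0.174 to 25.7% in spleen, 6.61 to 7.53% as higher in spleen and 0.766 to 9.69% by the interaction. Those with 3 P450 calls in heart, 3 in liver and 4 in spleen had 10.2%, 0.0697% and 24.6%. The interaction gave 3 calls with a pseudocount of 0.1 (4.05% of all genes), 5 with median-ratio scaling (3.62%), 3 with the kidney of S0235 (1.81%) and 4 with matches of at least 200 residues (6.07%). Median-ratio scaling gave 21 entries higher in liver (10.6% of all genes), 5 in lung (9.66%) and 2 in spleen (8%). Without 1 animal there were 15 to 19 in liver (6.53 to 6.93%) and 7 or 8 in lung (20.2 to 22.2%). Identity of at least 80% gave 12 entries higher in liver (6.76%), 6 in lung (21.3%) and 1 in kidney (9.07%). Matches of at least 200 residues, which leave fewer entries, gave 1 higher in heart (4.56%), 1 in kidney (9.07%), 10 in liver (6.76%) and 4 in lung (21.3%). Other causes were not tested.

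The P450 share with mitochondrial and haemoglobin transcripts left out of the total was 0.0316% in ET-type and 0.0331% in L-type hearts, 0.550% and 0.442% in kidneys, and 0.0128% and 0.0157% in spleens. With transcripts of at least 80% identity it was, for ET-type and L-type, 0.00860% and 0.00801% in heart, 0.0585% and 0.0630% in kidney, 0.931% and 0.937% in liver, 0.164% and 0.161% in lung, and 0.00691% and 0.0101% in spleen.

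Single entries were on the same side in 822 of their repeats, past the threshold in 17 more, no longer past it in 27 and of opposite sign in 39. With the kidney of S0235 the kidney differences were -0.99 for CP4AO, -0.51 for CP4X1, -0.90 for CP2CI, -0.33 for CP242 and -1.17 for CP2CQ. CP4AO in kidney was -0.57 with matches of at least 200 residues, and CP4V2 in lung -0.017 with identity of at least 80%. Leaving out 1 animal turned the sign of small differences: in heart CP2U1 (-0.11 to 0.033), CP241 (-0.13 to 0.089) and CP2F1 (-0.26 to 0.13); in kidney CP2CQ (-1.18 to 0.63), CP2S1 (-0.075 to 0.63), CP2CI (-0.37 to 1.37) and CP242 (-0.26 to 0.90); in lung CP4V2 (-0.19 to 0.29), CP4F3 (-0.10 to 0.24), CP2A5 (-0.33 to 0.56) and CP2B4 (-0.074 to 0.34); and in spleen CP4F6 (-0.11 to 0.23). TPM gives no depth, so low values carry an unknown counting error, and matches of few residues limit which gene an entry stands for.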

Other observations

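The kidney library of ET-type S0235, which carried lymphocyte and macrophage markers in place of tubule markers, had P450 transcripts at 0.0110% of its TPM. CP2CN was at 0.313 TPM there and CP2CI at 0. The highest entries were CP4V2 at 31.2 TPM, CP2J2 at 28.6 TPM, CP2U1 at 10.6 TPM, CP2S1 at 8.46 TPM and CP3AT at 5.82 TPM.

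Over the 10 livers, the entries outside the P450s whose log2(TPM + 1) most resembled that of the summed CYP2C entries were ADT1, an ADP/ATP carrier of mitochondria, with a Pearson r of 0.947, TX1B3 (0.932), PCSK6, a proprotein convertase (0.932), CBR2, a carbonyl reductase (0.926), and UBAC2 (0.919). Within the 5 ET-type and the 5 L-type livers apart, r was 0.787 and 0.956 for ADT1, 0.880 and 0.956 for TX1B3, 0.782 and 0.978 for PCSK6, 0.772 and 0.927 for CBR2 and 0.624 and 0.973 for UBAC2. These values describe 10 livers, and no p is attached to them. CBR2 had 5912, 3167, 3213, 8543 and 2563 TPM in ET-type and 114, 6548, 116, 2955 and 233 TPM in L-type livers. Its low values were those of L-type S0349, S0377 and S0385, the livers with the highest CP2E1.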
